A study of Sus scrofa with 5 samples.

Results

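The ADAMDEC1 fibroblasts of the piglet cecum were chosen as barcodes with at least 200 detected genes, at least 5 UMIs (unique molecular identifiers, each marking 1 captured RNA molecule) of COL1A1, COL1A2, COL3A1, DCN and LUM together with at least 2 of these 5 matrix genes detected, at least 1 UMI of ADAMDEC1, no UMI of WNT5A or PTPRC, and at most 2 UMIs each of ACTG2 and RGS5. By this rule, 3285 of 72701 kept cells (4.52%) were ADAMDEC1 fibroblasts, and these are the members described here. Without the conditions on ADAMDEC1 and WNT5A, the same criteria kept 5727 cells, called stromal cells below, of which the members made up 57.4%. The members were chosen by their measured UMIs of 10 genes, so the levels of those genes, and differences between the members and other stromal cells, are given as descriptions.

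The study followed the cecum of male large white piglets at birth (d0) and at 1, 7, 14 and 21 days of age (d1, d7, d14 and d21) by droplet single-cell RNA sequencing. The mucosa was scraped gently and dissociated with EDTA and trypsin, and each age is a single library that mixes the cells of 5 piglets. There were therefore no replicates, age could not be told apart from library, and no test between ages was made. The kept cells carried 83394038, 80196009, 47921183, 91863866 and 69522315 UMIs in order of age, and the members 124164, 5957329, 255726, 4503367 and 1076961.

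Fibroblasts of the lamina propria, the loose connective tissue beneath the gut epithelium, secrete the collagens and glycoproteins of the mucosal matrix and send signals to epithelial and immune cells. ADAMDEC1 is a secreted metalloprotease of the ADAM family that is known as a marker of fibroblasts in the intestinal mucosa, whereas WNT5A marks fibroblasts that lie close to the epithelium, RGS5 marks pericytes and ACTG2 smooth muscle. Among the other markers given for these cells, CXCL14 is a chemokine, IGF1 a growth factor, FBLN1 (fibulin 1) a matrix glycoprotein, and COL14A1 a collagen found on the surface of collagen fibrils.

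The members were unevenly spread over the ages. There were 46, 1621, 82, 1138 and 398 of them at d0, d1, d7, d14 and d21, so that 49.3% came from d1 and 34.6% from d14. Their share of the kept cells, with its exact Clopper-Pearson 95% confidence interval (CI), was 0.302% (0.221% to 0.403%) at d0, 11.5% (10.9% to 12%) at d1, 0.798% (0.635% to 0.990%) at d7, 7.03% (6.65% to 7.44%) at d14 and 2.36% (2.13% to 2.60%) at d21. Intervals here and below cover counting error only, not the variation between piglets or dissociations. Among the stromal cells, which numbered 98, 3013, 174, 1749 and 693, the members made up 46.9%, 53.8%, 47.1%, 65.1% and 57.4%. Stromal cells as a whole were also most frequent at d1 and d14, with 0.644%, 21.3%, 1.69%, 10.8% and 4.10% of the kept cells. Among the kept cells the member share was lower at d14 than at d1, and among the stromal cells it was higher. With the rule applied to counts thinned to 1000 UMIs per cell, the share was about the same at d1 and d14 (log2 ratio 0.0071). Cells with fewer UMIs were left out, and the log2 ratio was -0.70 without thinning. Thinning also takes away UMIs of WNT5A, PTPRC, ACTG2 and RGS5, which exclude cells. The members went from 1621 to 1382 at d1 and from 1138 to 1644 at d14, so the thinned share covers a different set of cells. Without the members that held UMIs of other lineages, the d1 share was 6.92% and the log2 ratio -0.16, and among cells under 20% mitochondrial counts the d0 share was 0.640%. The kept cells are all barcodes with at least 200 genes and are more numerous than the cells the study retained, so these shares have another denominator than shares in the study.

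**Figure D1:**
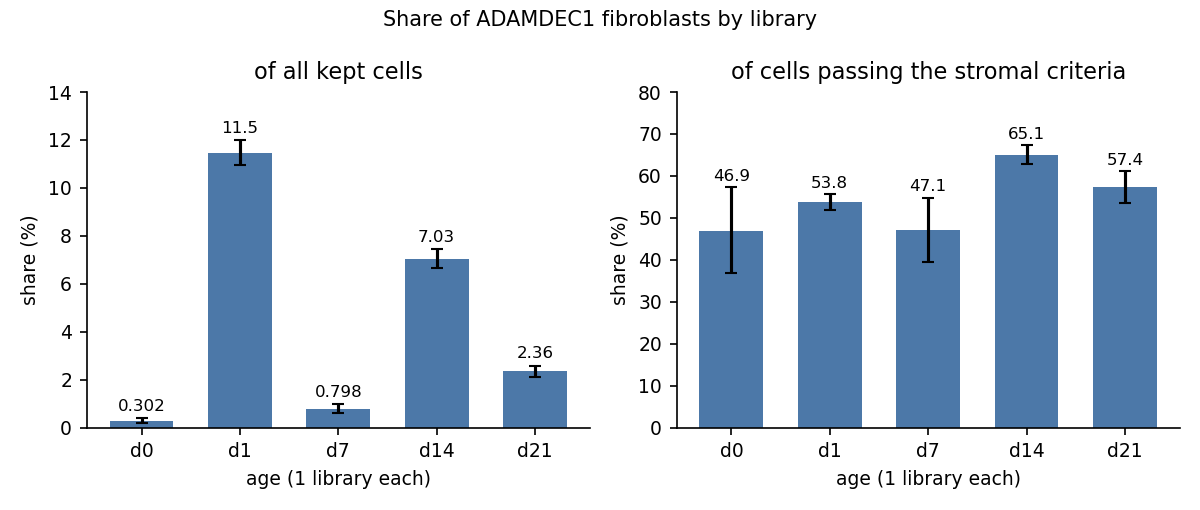
Share of ADAMDEC1 fibroblasts in each library (1 bar per age, in percent), of all kept cells on the left and of the stromal cells on the right; error bars are exact 95% intervals of counting. The left bars range from 0.302% at d0 to 11.5% at d1, whereas the right bars stay between 46.9% and 65.1%.

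Depth and signs of other cells differed between the libraries. The median member had 2082, 2670, 2301.5, 3445 and 2211.5 UMIs, and the deepest ones 85060 at d1 and 80537 at d14. Mitochondrially encoded genes took 10.5%, 9.18%, 11.2%, 7.08% and 6.35% of the member UMIs. At least 2 UMIs of epithelial, endothelial, lymphoid, myeloid or glial genes were present in 26.1%, 39.7%, 17.1%, 12.04% and 24.6% of the members, most often at d1. Any pair of libraries shared between 37 and 79 barcode sequences among the kept cells, but no barcode was a member in both libraries of a pair, and 3, 23, 1, 17 and 5 members had a barcode that was also kept in another library. Leaving out every such barcode left 43, 1598, 81, 1121 and 393 members.

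ADAMDEC1 (gene ID 100517917, chr14:8455964-8483308 in Sscrofa11.1) is the gene that the rule requires. Levels are given as the UMIs of a gene, added up over a set of cells, per 10000 UMIs of the same cells. That of ADAMDEC1 in the members was 36.4 at d0 (exact Poisson 95% CI 33.1 to 39.9), 42.5 at d1 (42.0 to 43.0), 44.5 at d7 (42.0 to 47.2), 115 at d14 (114 to 116) and 38.6 at d21 (37.4 to 39.8). The median member carried 6, 8, 7.5, 31 and 6 ADAMDEC1 UMIs, and the share with only 1 UMI was 17.4%, 15.4%, 15.9%, 3.60% and 15.6%. Thus d14 stood apart, with 76.6% of its members at 10 or more UMIs against 36.4% to 47.6% at the other ages.

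ADAMDEC1 UMIs were also present in cells other than stromal cells, and whether free RNA or doublets gave them was not tested. A UMI was found in 51.0%, 72.8%, 64.9%, 95.1% and 70.0% of the stromal cells, in 1.06%, 12.6%, 1.14%, 20.2% and 5.96% of T cells and in 0.739%, 14.0%, 2.84%, 23.9% and 5.00% of epithelial cells. The median depths at d14 were 3863 UMIs for stromal cells, 4144 for T cells and 4922 for epithelial cells. After thinning to 1000 UMIs, the share at d14 was 91.7% of the stromal cells, 5.11% of the T cells and 3.06% of the epithelial cells. At d1 the thinned shares were 62.1%, 6.92% and 2.46%. The stromal share was above that of T cells and epithelial cells in every library, yet at d1 and d14 a single ADAMDEC1 UMI was also common outside the stroma. Cells with CD14, a gene of monocytes and macrophages, had a UMI in 13.8%, 15.2%, 1.19%, 22.5% and 10.3%. Thinned, these shares were 12.3%, 4.71%, 0.155%, 3.59% and 1.38%. At equal depth a UMI was thus still frequent in CD14 cells at d0, among only 57 cells. At d21 it was not, with thinned shares of 1.84% in T cells and 2.18% in epithelial cells. The T cells, epithelial cells and CD14 cells exclude any cell with a matrix gene UMI. Cells without one were 6507 of 14142 kept cells at d1 and 8246 of 16177 at d14. The shares outside the stroma given here and below may therefore be too low.

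**Figure D2:**
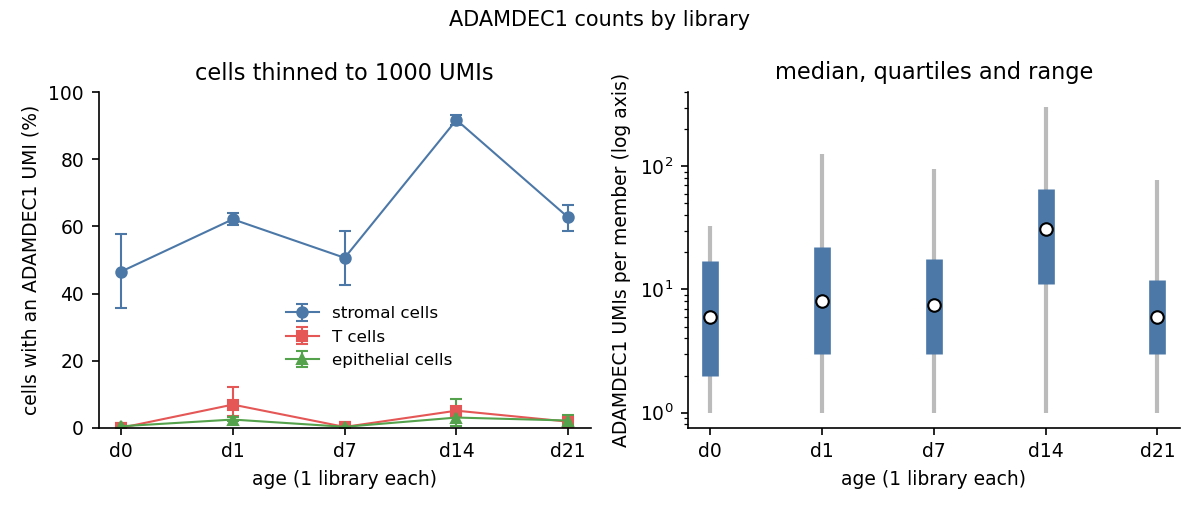
Left, share of stromal cells, T cells and epithelial cells with an ADAMDEC1 UMI in each library after thinning to 1000 UMIs per cell, with exact 95% intervals of counting; right, ADAMDEC1 UMIs per member on a log axis, with the median (white point), quartiles (thick line) and range (thin line). Stromal cells at d14 reached 91.7%, and the median at d14 was 31 UMIs against 6 to 8 at the other ages.

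ADAMDEC1 was not particular to the members among stromal cells. Stromal cells with a WNT5A UMI, which the rule leaves out, carried ADAMDEC1 at a level of 32.6 at d1, 94.96 at d14 and 27.4 at d21, and 83.8%, 94.3% and 78.4% of them had at least 1 UMI of it. Cells with matrix genes and over 2 RGS5 UMIs had levels of 6.43, 35.6 and 12.8 at these ages, and at d14 those with over 2 ACTG2 UMIs had 61.4. All of these levels were far above the 0.286, 0.543 and 0.181 of cells without any matrix gene UMI.

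Pooled over the libraries, 1036 cells with no ADAMDEC1 UMI that passed all other conditions had a CXCL14 level of 23.7 and an IGF1 level of 0.355. The 374 members with 1 ADAMDEC1 UMI had 31.7 and 0.565, and the 1815 members with 10 or more had 154 and 6.11. At the limit of the matrix genes, 84 members with 5 UMIs had a CXCL14 level of 29.8, and 103 cells with 4 UMIs, just outside, had 6.36. These pooled values mix libraries unevenly, since 250 of the 374 members with 1 UMI came from d1 and 872 of the 1815 with 10 or more from d14.

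Within a library, CXCL14 was higher in members with more ADAMDEC1 UMIs, at d21 by little. At d1, members with 1, with 2 to 9 and with 10 or more ADAMDEC1 UMIs had CXCL14 levels of 19.8, 32.2 and 58.6. At d14 these levels were 85.0, 118 and 234, and at d21 they were 70.6, 73.0 and 87.9. IGF1 had the same order at d14 with 2.47, 5.09 and 10.1 and at d21 with 2.33, 4.72 and 7.75, but not at d1, with 0.217, 0.211 and 0.702. COL14A1 had this order at d1, with 0.299, 0.406 and 0.438. It did not at d14, with 7.40, 5.76 and 7.72, or at d21, with 9.83, 7.59 and 8.89. Deeper cells were more often in the upper class, with a median of 905 UMIs in the lowest and 4145 in the highest class at d14, and the part of depth in these values was not tested.

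The other markers split the ages. CXCL14 (gene ID 494467, chr2:137803988-137813118) had levels of 80.2 (CI 75.3 to 85.4), 43.4 (42.9 to 44.0), 148 (143 to 152), 221 (220 to 222) and 79.9 (78.2 to 81.6) in order of age, and was detected in 91.3% to 98.8% of the members. Its level was thus lowest at d1 and highest at d14, while cells without matrix genes stayed at or below 1.17. FBLN1 (gene ID 100519144, chr5:3839498-3927178) had levels of 3.54 (2.57 to 4.76), 1.12 (1.04 to 1.21), 5.63 (4.75 to 6.63), 9.21 (8.93 to 9.50) and 9.48 (8.91 to 10.1), so the d1 members were lowest and those of d14 and d21 did not differ beyond counting error.

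IGF1 (gene ID 397491, chr5:81762027-81909253) had levels of 0.483 (0.177 to 1.05), 0.458 (0.406 to 0.516), 1.99 (1.48 to 2.62), 9.57 (9.28 to 9.86) and 5.89 (5.44 to 6.36). COL14A1 (gene ID 100158059, chr4:18690197-18925111) had levels of 0.403 (0.131 to 0.940), 0.405 (0.355 to 0.459), 3.17 (2.52 to 3.94), 7.53 (7.28 to 7.79) and 8.50 (7.95 to 9.06). Both were low at d0 and d1, intermediate at d7 and high at d14 and d21. IGF1 was detected in 10.98% of the members at d1 and 75.3% at d14 (5.17% and 53.2% after thinning), and COL14A1 in 11.8% and 73.6% (5.10% and 49.7% after thinning), against at most 1.93% of T cells at d1 or d14 for either gene. FBLN1 was detected in 50% of the members at d0, 27.1% at d1 and 73.6% at d14. ADAMDEC1 is present in every member by the rule and says nothing on the label. Of the other 4 markers, CXCL14 was found in most members at every age. It was also found in 16.4% of T cells at d1 and 36.3% at d14 (5.03% and 10.4% after thinning). At d0 and d1 most members had no UMI of IGF1 or COL14A1, and at d7 these were detected in only 30.5% and 48.8%. Where in the mucosa the cells lay was not measured.

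**Figure D3:**
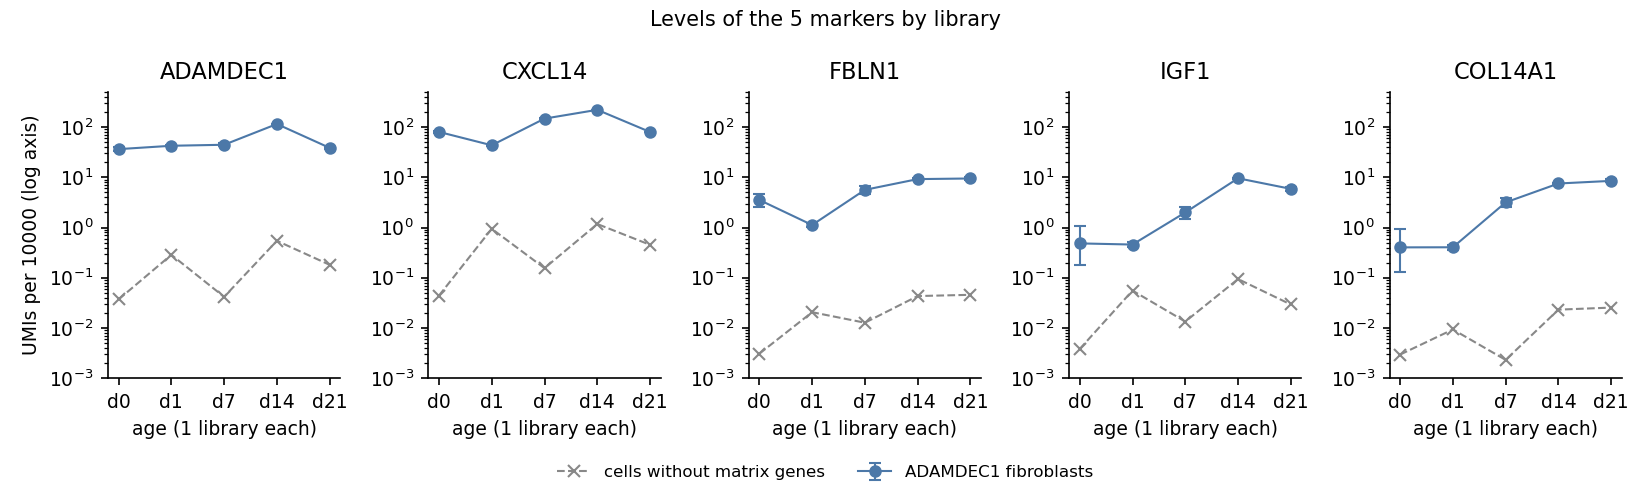
Levels of the 5 markers (UMIs per 10000, log axis) in the members of each library (points with exact Poisson 95% intervals) and in cells without a UMI of the matrix genes (crosses). IGF1 and COL14A1 lie near 0.4 to 0.5 at d0 and d1 and between 5.89 and 9.57 at d14 and d21, and every member level is above that of the cells without matrix genes.

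The fibroblast identity was also checked on a gene outside the rule and on markers of other cells. PDGFRA, a receptor of platelet-derived growth factor typical of fibroblasts, had levels of 2.42, 3.70, 4.15, 4.85 and 3.21 and was detected in 34.8% to 66.4% of the members, against at most 1.89% of T cells. The rule requires PTPRC, a gene of all leukocytes, to be at 0, so low levels of leukocyte markers follow in part from the choice. The summed level of 4 T cell markers was 0, 0.0118, 0.391, 0.249 and 1.29, that of 6 myeloid markers at most 1.03, and that of 4 glial markers at most 0.409. The 5 pericyte markers, which include RGS5 with its limit in the rule, summed to 2.94 at most, at d21. The 5 endothelial markers summed to 0.725, 5.25, 1.33, 0.615 and 0.539, with PLVAP the most abundant, against 9.60 at d1 in cells without matrix genes. The 5 smooth muscle markers, ACTA2 the most abundant and ACTG2 limited by the rule, summed to 2.34, 3.62, 8.17, 20.4 and 13.9, against at most 0.391 in cells without matrix genes. Epithelial markers were higher and moved with age, as described below. The B and plasma cell markers summed to 3.67 at d14 and 1.48 at d21, and most of the d14 sum was JCHAIN, with 77.2% of its UMIs in 1 member.

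Between ages, a gene was counted when its levels differed at least 2-fold (log2 ratio of at least 1 either way, with 0.1 added to both levels) and reached 0.5 in either age; this is a size and not a test. From d1 to d14, 391 of 3689 genes (10.6%) were higher and 305 (8.27%) lower. From d1 to d21, 578 of 3932 genes (14.7%) were higher and 247 (6.28%) lower. Between d14 and d21 fewer genes differed, with 120 of 3781 (3.17%) higher and 30 (0.793%) lower at d21. Taken either way, 18.9%, 21% and 3.97% of the genes were past 2-fold in these comparisons. The counts for gene lists below are to be read beside these shares of all genes. The comparisons share libraries, so their values are set side by side and are not independent. The median of all genes was 0.20 for d14 over d1, 0.25 for d21 over d1 and 0.06 for d21 over d14, and with this shift removed the share of higher genes among those counted was 41.7% instead of 56.2% at d14 over d1 and 48.7% instead of 70.1% at d21 over d1. Ribosomal protein genes took 21.5%, 23.0%, 15.1%, 16.03% and 15.6% of the member UMIs. Without ribosomal, mitochondrial and haemoglobin genes in the totals, the share of higher genes was 41.5% at d14 over d1 and 54.2% at d21 over d1.

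Of 16 collagen genes compared between d1 and d14, 8 were at least 2-fold higher and 1 lower, with a median log2 ratio of 1.05. The 8 include COL1A1, COL1A2 and COL3A1, which the rule uses. COL3A1, a fibrillar collagen, had levels of 63.4, 45.5, 60.7, 98.2 and 68.1. COL1A1, the chain of type I collagen present as a pair in each molecule, had 8.86, 8.66, 24.5, 28.1 and 24.9, and the basement membrane collagen COL4A1 17.4 at d1 and 22.1 at d14. COL15A1, a collagen next to basement membranes, had 2.36 at d1, 8.97 at d14 and 9.78 at d21. The exception was COL4A5, with 1.43 at d1, 0.215 at d14 and 0.353 at d21.

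Matrix glycoproteins behaved alike, with 18 of 36 higher and 2 lower at d14 than at d1 and a median log2 ratio of 0.96. FN1, fibronectin, had levels of 7.41, 4.48, 24.1, 43.8 and 33.8, a log2 ratio of 3.26 for d14 over d1. The d7 members, from a library with only 82 of them, already stood well above d1 for this gene. LUM, a proteoglycan of the rule, had 3.71 at d1 and 12.7 at d14, and DPT (dermatopontin) 3.14, 6.81 and 7.05 at d1, d14 and d21. HAPLN1, which links proteoglycans to hyaluronan, had 0.196, 1.11 and 2.18. The lower genes were ASPN and EFEMP1, and ASPN went from 0.700 at d1 to 0.0688 at d14. DCN, a proteoglycan that binds collagen and a gene of the rule, had 23.0, 15.6, 24.4, 21.2 and 11.2, lowest at d21.

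Among proteases, their inhibitors and cross-linking enzymes, 18 of 28 genes were higher at d14 than at d1. The 18 include ADAMDEC1, which the rule requires. MMP1, the interstitial collagenase, had levels of 0.242, 0.144, 0.821, 1.60 and 0.0186, so that it was highest at d14 and almost not detected at d21 (log2 ratio -3.84 for d21 over d14). MMP3 (stromelysin 1) had 0.0302 at d1, 1.33 at d7, 0.586 at d14 and 0.111 at d21. MMP14, a membrane-bound protease, had 0.579, 1.80, 1.75 and 1.67 at d1, d7, d14 and d21. ADAMTS5, an enzyme that cleaves aggrecan, had 0.514 at d1, 1.54 at d14 and 1.82 at d21, without a lower value at the last age. At d21 against d14, 5 of 28 genes of this list were lower, among them ADAMDEC1 itself with a log2 ratio of -1.58.

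Of the chemokines and cytokines, 10 of 19 were higher and 1 (CCL20) lower at d14 than at d1. CCL2, which attracts monocytes, had levels of 2.66, 4.34, 8.06, 11.01 and 18.1, highest at d21. CCL19, a ligand of the receptor CCR7, had 0.0269 at d1, 0.602 at d14 and 1.23 at d21. CXCL12, a ligand of CXCR4, had 1.99, 3.34 and 5.91 at these ages. CXCL14 alone was at least 2-fold lower at d21 than at d14 (log2 ratio -1.47). CCL5, a chemokine of T cells and NK cells, had 0.0873 at d1, 2.63 at d14 and 15.3 at d21 in the members, but 2.77, 61.4 and 126 in cells without matrix genes. The level of CCL5 in the members was thus below that of other cells in the same libraries, and whether free RNA gave it was not tested.

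Complement genes were higher in the older members as a group. At d14 against d1, 9 of 13 were higher and none lower, with a median log2 ratio of 1.71, and the summed level was 53.9, 37.1, 81.1, 123 and 137 in order of age. CFD (complement factor D), the most abundant of them, had 35.4, 21.9, 50.2, 72.1 and 89.3. C1R and C1S, the proteases of the classical pathway, had 4.39 and 3.097 at d1 and 17.6 and 11.8 at d14. C4A, a substrate of C1S, had 0.104 at d1, 1.61 at d14 and 2.99 at d21, and C3 0.418, 1.959 and 2.09. SERPING1, the inhibitor of C1R and C1S, had 2.296, 8.40 and 7.77. CLU (clusterin), another inhibitor, had 0.129, 2.11 and 3.06, so these substrates, proteases and inhibitors were higher at d14 and d21 than at d1. The 1 exception at d21 was C1QA, a complement gene of macrophages, which was lower than at d1, with 48.6% of its d1 UMIs in 1 member.

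Growth factor genes did not move one way. Of 22 genes compared between d1 and d14, 5 were higher and 4 lower (10.6% and 8.27% of all genes). Besides IGF1, IGFBP5 and IGFBP7, which bind insulin-like growth factors or related proteins, were higher, IGFBP5 with 0.589 at d1, 4.51 at d14 and 5.18 at d21 and IGFBP7 with 18.2, 43.0 and 37.1. NRG1, a ligand of ERBB receptors, had levels of 0.161, 0.866, 5.04, 2.97 and 0.873 and was thus highest at d7 and d14. FGF10, a growth factor of the mesenchyme, was not counted at d14 (0.346 against 0.102 at d1) but was at d21, with 0.566. The lower genes at d14 were the EGF receptor ligands AREG, EREG and HBEGF and the angiogenic factor VEGFA, with AREG at 2.45 at d1 and 0.684 at d14 and VEGFA at 1.90 and 0.604. In cells without matrix genes, AREG was also lower at d14 (0.573) than at d1 (4.16), as was EREG (0.144 against 3.44). IGF2, an imprinted growth factor, had 2.497, 2.41, 3.28, 2.44 and 1.98. None of 7 imprinted growth genes was past 2-fold in any of the 3 comparisons between ages, where 18.9%, 21% and 3.97% of all genes were. With 7 genes the list is too short to be set apart from all genes.

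Of 10 WNT and BMP ligands and inhibitors compared between d1 and d14, 4 were higher and none lower. SFRP1, a secreted inhibitor of WNT signaling, had levels of 0.0805, 0.138, 1.06, 2.66 and 2.78, with a log2 ratio of 3.54 for d14 over d1. WNT2B had 0.237, 0.848 and 1.02 at d1, d14 and d21, WNT4 0.782, 1.78 and 1.71, and BMP4 3.095, 7.31 and 6.54. WNT2 and, by the rule, WNT5A were at 0 in the members of every library. GREM1, RSPO1 and RSPO3, factors known to sustain intestinal stem cells and looked up after their values had been seen, were at or below 0.00929 in every library. The counts of 0 allow a level of up to 0.242 at d0, 0.00504 at d1, 0.117 at d7, 0.00666 at d14 and 0.0279 at d21 (3 counts).

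Transcription factors and hedgehog genes of the gut mesenchyme were present at low levels, with 6 of 17 higher and none lower at d14 than at d1. TCF21 had levels of 1.69, 2.76, 4.26, 5.78 and 6.12, PITX1 0.725, 0.804, 2.66, 2.74 and 2.95, and NR2F1 0, 0.0302, 0.274, 0.631 and 1.43. The FOX factors FOXF1 and FOXF2, which respond to hedgehog signals in gut mesenchyme, stayed within 2-fold, with 1.14 and 1.55 at d1 and 1.31 and 2.46 at d14. PTCH1, the hedgehog receptor, had 1.93, 2.58, 3.05, 2.59 and 4.52. SLIT3, a secreted guidance protein, had 0.322, 0.228, 3.28, 3.39 and 3.54, and its level was already at d7 as at d14 and d21.

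In retinoid metabolism 5 of 8 genes were higher at d14 than at d1 and none lower, with ALDH1A1, which makes retinoic acid, at 0.648 at d1, 5.29 at d14 and 3.18 at d21, and ALDH1A3 at 0.923, 3.04 and 1.71. In lipid handling 3 of 9 were higher and 3 lower (10.6% and 8.27% of all genes). APOE, a lipoprotein component, had levels of 8.70, 5.16, 18.7, 27.9 and 24.9. FABP5, CD36 and PLIN2 were the lower ones, and FABP5 went from 4.15 at d1 to 0.118 at d14, with 11.5 and 1.10 in cells without matrix genes. In the prostaglandin system, PTGDS had 1.42 at d1 and 3.73 at d14, and PTGES, the synthase of prostaglandin E2, 1.99 at d1, 2.97 at d14 and 0.984 at d21. A2M, a broad protease inhibitor, had 0.403, 0.228, 0.469, 4.54 and 4.38 and so separated d14 and d21 from d7 as well as from d1.

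Contractile genes were nearly all higher after d1. Of 11 genes, 10 were higher and none lower both at d14 and at d21 against d1, and the summed level was 22.4, 17.3, 38.8, 71.0 and 55.5. ACTA2 (smooth muscle actin) had levels of 1.93, 2.49, 6.69, 17.1 and 10.2, TAGLN (transgelin) 2.34, 2.25, 4.97, 12.7 and 7.47, and CALD1 (caldesmon) 9.26, 5.78, 12.3, 15.7 and 15.9. At d0, 18 of the 24 ACTA2 UMIs were in 1 member. The rule caps ACTG2 and RGS5, not ACTA2, TAGLN or MYH11, and MYH11 had 0.886 at d1, 2.73 at d14 and 3.26 at d21. The pericyte genes RGS5 and NOTCH3 were 2-fold higher only at d21, with RGS5 at 0.622 against 0.200 at d14 and NOTCH3 at 0.966 against 0.242.

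**Figure D4:**
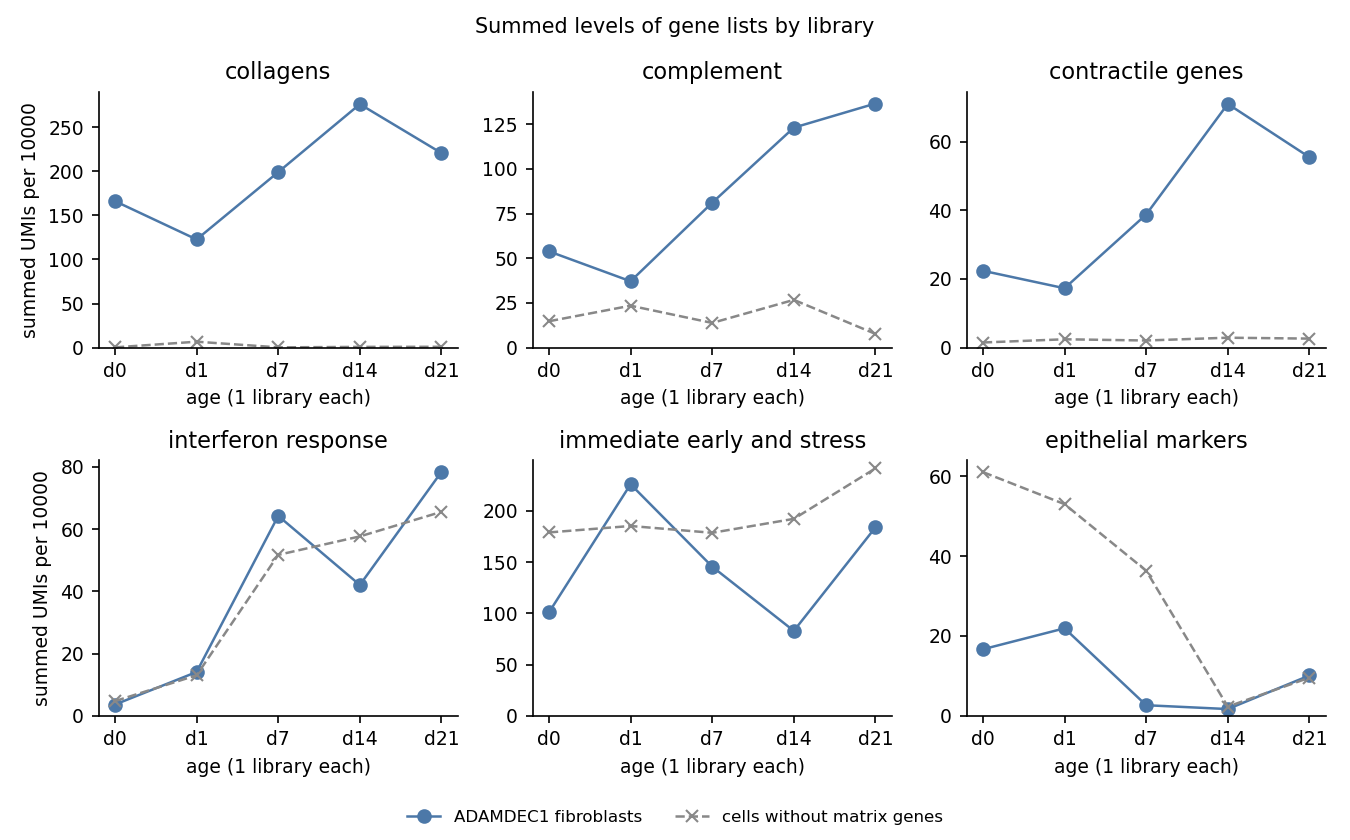
Summed levels (UMIs per 10000) of 6 gene lists in the members of each library (points) and in cells without a UMI of the matrix genes (crosses). Collagen, complement and contractile genes are highest at d14 or d21 in the members and higher there than in other cells at every age. Interferon, immediate early and epithelial genes are higher in the members at some ages and in the other cells at others. Immediate early genes, for example, reach 226 in the members and 185 in the other cells at d1.

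The summed level of interferon response genes in the members was 3.62, 14.1, 64.2, 42.0 and 78.4, and in cells without matrix genes 4.73, 13.0, 51.7, 57.7 and 65.5. At d21 against d1, 10 of 13 genes were higher and 2 (IRF1 and CXCL10) lower (14.7% and 6.28% of all genes). At d14 against d1, 3 of 9 were higher and 1 lower (10.6% and 8.27% of all genes). IFI6, which made up much of the sum from d7 on, had levels of 0.564, 2.81, 34.3, 28.0 and 54.2 in the members and 0.565, 3.62, 23.1, 25.8 and 31.7 in the other cells. ISG15 had 0.888 at d1, 1.85 at d14 and 6.51 at d21 in the members, but 32.2% of its UMIs at d21 were in 1 member. For RSAD2, another of the 10 genes, the largest share in 1 member was 56.7%. Of the antigen presentation genes, 1 of 12 (SLA-2) was higher at d14 against d1 (10.6% of all genes) and 4 of 15 (SLA-2, SLA-3, SLA-8 and PSMB9) at d21 against d1 (14.7% of all genes). B2M stood at 3.79, 8.28, 10.3, 9.04 and 12.6.

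Immediate early and stress genes went the other way at d14. Of 24 genes, 14 were lower and 1 (HSPA6) higher at d14 than at d1, and 15 were higher and none lower at d21 than at d14, with a summed level of 101, 226, 146, 82.9 and 184. FOS had levels of 9.10, 21.0, 3.95, 2.39 and 9.34, EGR1 4.19, 16.6, 3.64, 2.61 and 8.53, JUN 15.6, 35.5, 27.3, 12.9 and 27.2, and ATF3 2.90, 8.28, 0.899, 0.262 and 2.15. These transcription factors are known to be induced within minutes of stimulation, including by dissociation of tissue. In cells without matrix genes the summed level was 179, 185, 179, 192 and 242 and so did not dip at d14. The part of dissociation in these levels was not tested.

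Most of the 305 genes that were lower at d14 than at d1 were more abundant outside the members. Only 69 of them had a level in the d1 members at or above that in d1 cells without matrix genes, whereas 358 of the 391 higher genes were at or above it at d14. At d21 against d1, 59 of 247 lower and 508 of 578 higher genes were. Of all genes compared, 2330 of 3689 for d14 over d1 and 2605 of 3932 for d21 over d1 were at or above it at the age where their level was higher. Epithelial genes were among those with the lowest ratios. KRT8, a keratin, had levels of 7.09, 7.23, 0.939, 0.615 and 4.63 in the members and 23.6, 17.8, 16.02, 0.807 and 3.33 in cells without matrix genes. DMBT1, a mucosal scavenger protein, had 5.72 at d1 and 0.00888 at d14, and S100G, a calcium-binding protein of enterocytes, 11.4 and 0.109, with 13.5 and 28.5 in the other cells at d1. PLVAP, a protein of endothelial fenestrae, had 3.65 at d1, 0.322 at d14 and 0.111 at d21. The summed level of 5 epithelial markers in the members was 16.7, 21.9, 2.66, 1.70 and 10.1, with KRT19 as the most abundant (7.61 at d1), against 61.0, 53.0, 36.3, 2.31 and 9.56 in cells without matrix genes. Their part in the lower genes was not tested. Without the members that held at least 2 UMIs of other lineages, 286 genes were higher and 183 lower at d14 than at d1, and 561 higher and 163 lower at d21 than at d1.

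Several large differences between d14 and d21 came from few barcodes. KRT20, FABP1, S100A2, LGALS3, KRT8 and KRT19 were all among the 10 largest differences towards d21, with log2 ratios from 2.59 to 3.11, and the same member of d21, with 31462 UMIs in all, held 88.4%, 84.1%, 92.2%, 78.03%, 74.9% and 59.2% of their d21 UMIs. It also had 11 ADAMDEC1 UMIs and 26 UMIs of the matrix genes. JCHAIN, a gene of plasma cells, had a level of 3.41 at d14 and 1.33 at d21, and 77.2% of its d14 UMIs were in 1 member. BPI went from 1.48 at d14 to 0.344 at d21, and 69.8% of its d14 UMIs were in 1 member with 80537 UMIs. When the member with most UMIs of each gene was left out, 74 of the 120 higher and 22 of the 30 lower genes of d21 over d14 were still past 2-fold, against 377 of 391 and 294 of 305 for d14 over d1.

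Some lower levels at d21 were spread over many members. TRPA1, an ion channel, had levels of 1.61, 0.814, 1.45, 1.65 and 0.353, and at d14 it was found in 334 members with 1.88% of its UMIs in the highest. CTHRC1, a secreted protein of activated fibroblasts, had 0.483, 0.588, 0.939, 1.33 and 0.121. NRG1, MMP1, PTGES and PDPN (podoplanin), the last with 1.07 at d14 and 0.446 at d21, were lower at d21 as well. Stromal cells with a WNT5A UMI had TRPA1 at 3.94 at d14 and 2.70 at d21 and CTHRC1 at 1.48 and 0.787.

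Members were then set beside stromal cells with a WNT5A UMI. Only d1 had at least 50 stromal cells with WNT5A and without ADAMDEC1 (111 cells), and there 35 of 3179 genes (1.1%) were at least 2-fold higher in the members and 27 (0.849%) lower, ADAMDEC1 and WNT5A among them by the rule. Without the d1 members that held UMIs of other lineages these counts were 86 and 169. That filter took out members only and left all 111 cells of the other class in. With both classes chosen on counts thinned to 1000 UMIs per cell, but levels taken from all UMIs, the counts were 85 and 78. FN1 had 4.48 in the members and 1.31 in the WNT5A class, the adhesion molecule VCAM1 3.90 and 1.21, and THBS1 (thrombospondin 1) 2.46 and 0.463. ASPN (asporin), in contrast, had 0.700 and 2.60, the endothelin receptor EDNRB 1.29 and 3.45, the anchoring fibril collagen COL7A1 0.507 and 1.93, and the transcription factor FOXL1 0.572 and 1.57. The WNT5A class without ADAMDEC1 was also free of the members' defining gene by construction, so the comparison was repeated, after its values had been seen, with all stromal cells that had a WNT5A UMI.

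With ADAMDEC1 allowed, there were 684, 557 and 111 such cells at d1, d14 and d21. None of 2575 genes (0%) was at least 2-fold higher in the members at all 3 ages, and 15 (0.583%) were lower, WNT5A among them by the rule. ASPN was at 2.18, 1.75 and 2.29 in the WNT5A cells and at 0.700, 0.0688 and 0.0929 in the members. SOX6, a transcription factor, was at 1.89, 2.77 and 7.73 against 0.611, 0.122 and 0.158, and EDNRB at 3.70, 4.60 and 5.82 against 1.29, 1.85 and 1.45. NDNF, PCSK6, COL7A1 and COL4A5 were lower in the members at all 3 ages too, with log2 ratios from -1.13 to -3.21. FOXL1 was at -0.99, -1.17 and -1.28 and so just missed the limit at d1. The gap of SOX6 and ASPN was smaller at d1 (-1.49 and -1.51) than at d21 (-4.92 and -3.63), a difference that was not tested.

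**Figure D5:**
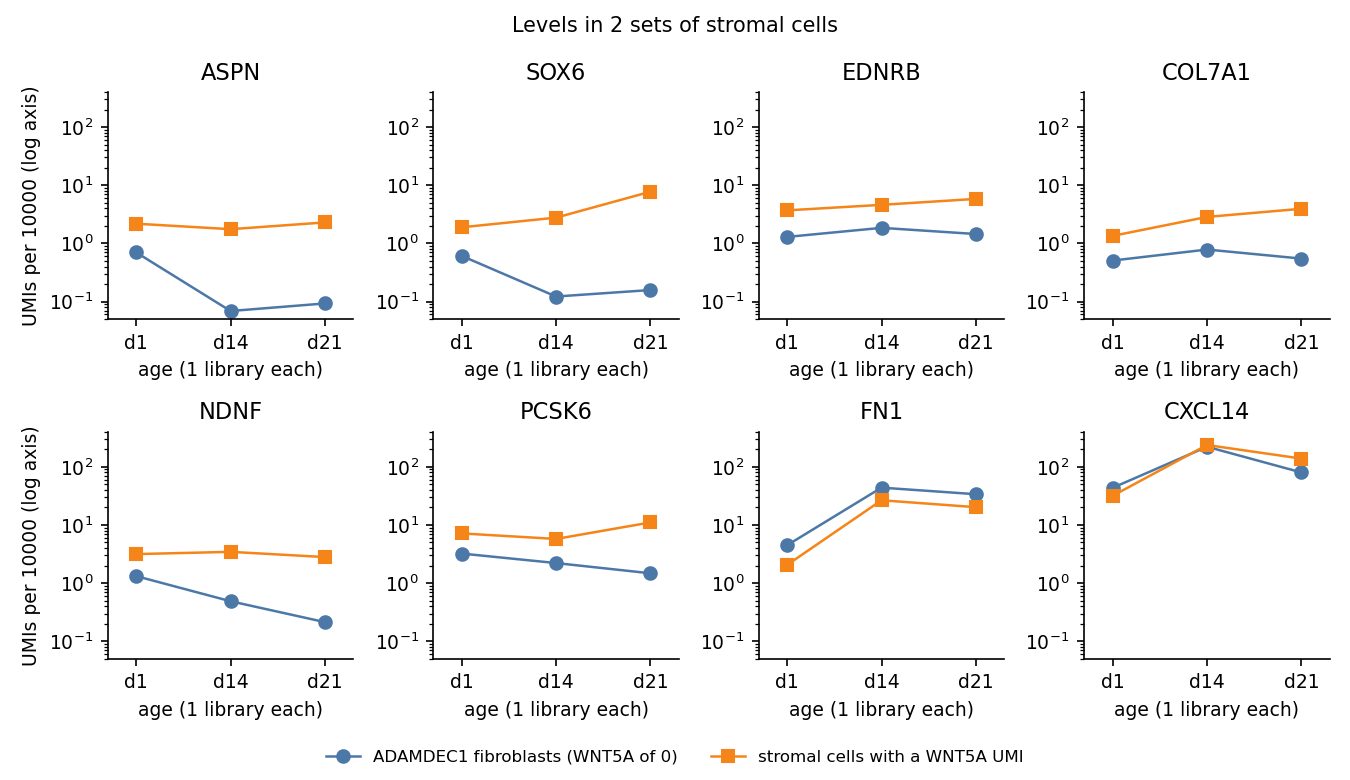
Levels of 8 genes (UMIs per 10000, log axis) in the members and in stromal cells with a WNT5A UMI at d1, d14 and d21. The first 6 genes are lower in the members at each age, FN1 is higher, and CXCL14 lies at or near the same level in both sets at d14 (221 and 237).

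The age pattern of the markers was shared by the WNT5A cells. IGF1 had levels of 0.149, 6.72 and 3.66 in them at d1, d14 and d21 (0.458, 9.57 and 5.89 in the members), COL14A1 0.205, 4.65 and 4.31, and FBLN1 0.428, 5.44 and 6.36. CXCL14 had 31.7, 237 and 138, so the WNT5A cells were below the members at d1 and above them at d21 (79.9). FN1 had 2.06, 26.6 and 20.2, lower than in the members at each of these ages. Both sets come from the same libraries, and their ages cannot be told apart from them.

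Against stromal cells with OGN (osteoglycin) but without ADAMDEC1 or WNT5A, which were present in sufficient number at d1 (325 cells) and d21 (64 cells), 4 of 2655 genes (0.151%) were higher in the members and 3 (0.113%) lower. ADAMDEC1 was 1 of the 4 by the rule. Without the members that held UMIs of other lineages, 7 were higher and 31 lower, with no such filter on the OGN cells. EDIL3, an integrin ligand, was at 1.37 at d1 and 1.08 at d21 in the members against 0.578 and 0.485. FCN2, a ficolin, was at 1.12 and 2.11 against 2.37 and 7.10, and 27.3% of its UMIs in the d1 members were in 1 barcode. OGN itself was found in the members, with levels of 4.35, 4.50, 1.64, 2.46 and 3.20. IGF1 was at 0.458 and 5.89 in the members against 0.253 and 2.67, and COL14A1 at 0.405 and 8.50 against 0.398 and 12.4, so COL14A1 did not set the members apart from these cells. Of the 5 markers of OGN fibroblasts, only 2 reached the level limit in this comparison, and none was past 2-fold either way. Other genes of adventitial fibroblasts are therefore described in the members only. PI16 and MFAP5 were at or below 0.130 in the members of every library, and CD34 was detected in 2.17% to 5.28% of members. DPT, in contrast, had levels of 4.11, 3.14, 2.27, 6.81 and 7.05 in order of age and was detected in 39.0% to 69.4%.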

How the data were processed

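The authors deposited, for each age, a matrix of UMI counts per gene and barcode without normalization, made per the labels with Cell Ranger 3.1.0 (STAR) on susScr11. The labels and the paper name different versions of the library kit. Of 15350, 14142, 10824, 16273 and 16975 barcodes, 15218, 14142, 10272, 16177 and 16892 had at least 200 genes, and doublets were not removed. Counts were analysed with Python 3.11.15, NumPy 2.4.6, SciPy 1.17.1 and pandas 2.3.3 and plotted with Matplotlib 3.10.9. Levels were summed counts per 10000, and ratios had 0.1 added, which understates changes of low genes. T cells had UMIs of CD3E and PTPRC, epithelial cells of EPCAM and KRT8 without PTPRC, and neither had matrix gene UMIs; cells without matrix genes are all kept cells with none of these UMIs. Besides the markers, genes were named as the 10 largest differences each way with a level of at least 1 in either group, unnamed loci, mitochondrial, ribosomal and haemoglobin genes left out, and from each of 35 lists as genes past 2-fold or the 6 most abundant. Markers of lymphatic endothelium, mast and erythroid cells summed to at most 0.274, 0.138 and 1.17 in the members, and cell cycle, adhesion, glycolysis and NF-kB lists to at most 21.0, 77.4, 46.7 and 22.3. The members, lists and comparisons were chosen with earlier results of these data known. Gene identifiers and coordinates come from RefSeq for Sscrofa11.1, matched by symbol. On simulated counts, 200, 198 and 198 of 200 changed genes were recovered for d14 over d1 (2882 genes), d21 over d1 (2953) and d21 over d14 (3450). The simulation held counting error only, and its changed genes had a level of at least 1. It did not model UMIs gathered in few barcodes, so it does not speak to differences of that kind. Alternatives covered filters, thresholds, pseudocounts, totals, the choice of cells on thinned counts and the removal of suspect members. Gene levels in the thinned alternative came from all UMIs of the chosen cells. Some genes of the lists are not reported here.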

Additional observations from a re-analysis of the deposited data

Results flagged for a closer look

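A few genes past 2-fold between ages in the members were past 2-fold in the opposite direction in stromal cells with a WNT5A UMI. Each comparison has 1 library per age, and the difference between the sets of cells was not tested. SOX6, which was among the genes higher in the WNT5A cells, had a log2 ratio of -1.46 for d21 over d1 in the members and 1.98 in the WNT5A cells. LGALS3 had 2.59 for d21 over d14 in the members and -1.97 in the WNT5A cells, and FABP1 had 3.11 and -1.36. For LGALS3 and FABP1, 1 member of d21 held 78.03% and 84.1% of the d21 UMIs. The locus LOC100524999, named here only for this pattern, had 2.01 and -1.58 for d21 over d1 and 2.92 and -1.89 for d21 over d14.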

How the results depend on the processing

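No paired analysis was possible because each age is 1 library. The log2 ratio of the share of kept cells was -0.70 for d14 over d1 and -1.58 for d21 over d14. Of the stromal cells, it was 0.27 and -0.18 (shares 46.9%, 53.8%, 47.1%, 65.1% and 57.4%). With the rule applied to counts thinned to 1000 UMIs, which also removes UMIs of the excluding genes, it was 0.0071 and -1.84 (11.5% at d14 and 3.20% at d21). With at least 10 ADAMDEC1 UMIs, added after seeing the data, it was 0.039 and -2.65 (0.112%, 5.25%, 0.380%, 5.39% and 0.858%). With at least 500 genes it was -0.85 and -1.36 (0.422% at d0, 12.7% at d1, 2.75% at d21), with under 20% mitochondrial counts -1.06 and -1.21 (0.640%, 13.2%, 6.34% and 2.73% at d0, d1, d14 and d21), with at least 2 ADAMDEC1 UMIs -0.52 and -1.77 (9.69% at d1, 1.99% at d21), and without members holding other lineage genes -0.16 and -1.80 (6.92%, 6.19% and 1.78% at d1, d14 and d21). Thus d14 was below d1 only under some of these choices, while d21 was below d14 under all of them. The causes of these shifts were not tested.

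Counts of genes past 2-fold are given as higher and lower. With a pseudocount of 1 they were 105 and 116 for d14 over d1, 105 and 67 for d21 over d1, 23 and 6 for d21 over d14, 5 and 4 against the WNT5A class and 1 and 0 against the OGN class. With 0.01, 42 were lower against the WNT5A class. Without the level filter, 666 were lower for d14 over d1 (544 higher), 923 and 526 for d21 over d1, 235 higher for d21 over d14, 142 and 56 against the WNT5A class and 8 higher against the OGN class. Without mitochondrial, haemoglobin and ribosomal genes, they were 335 and 472 for d14 over d1, 511 and 431 for d21 over d1, and 63 and 51 against the WNT5A class. Less the median, an alternative added after seeing the data, they were 268 and 375 for d14 over d1 and 353 and 372 for d21 over d1. With the cells chosen on thinned counts and levels taken from all their UMIs, 189 were lower for d14 over d1. For d21 over d14, 78 were higher and 40 lower (66.1% higher, against 80% with the cells chosen on all UMIs). Counts were then 85 and 78 against the WNT5A class and 2 higher against the OGN class. Without members holding other lineage genes, 183 were lower for d14 over d1 and 163 for d21 over d1, with 86 and 169 against the WNT5A class and 7 and 31 against the OGN class. The WNT5A and OGN classes were not filtered in this way. As a mean over cells, 42 were lower against the WNT5A class and 2 higher against the OGN class, and 5 were lower against the OGN class with at least 2 ADAMDEC1 UMIs or without the members above the 95th UMI percentile. Among alternatives added after seeing the data, genes at or above the level of cells without matrix genes numbered 69 lower for d14 over d1, 59 lower for d21 over d1 and 66 higher for d21 over d14, 74 were higher for d21 over d14 without the member with most UMIs of each gene, and 0 and 15 against all WNT5A cells.

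Of 840 ratios of single genes over 12 alternatives, 557 moved little, 275 moved further and 8 changed sign, all for d21 over d14. BPI was at 0.30 as a mean over cells and 0.45 with the cells chosen on thinned counts. It was at 0.11 without members holding other lineage genes and 0.23 without the members above the 95th UMI percentile. With the cells chosen on thinned counts and levels from all their UMIs, FABP1 was at -0.48, S100A2 at -0.37 and LGALS3 at -0.40. JCHAIN was at 0.70 without members holding other lineage genes. Depth limits d0 and d7 most, where 46 and 82 members leave 3 counts at levels of 0.242 and 0.117.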
